A study of Sus scrofa with 6 samples.

Results

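The extracellular matrix genes and integrins described here are the genes on the Affymetrix Porcine Genome Array whose platform symbol belongs to a fixed set of matrix families. They were taken by symbol alone: collagen chains (COL and a digit), matrix metalloproteinases (MMP), their inhibitors (TIMP), fibrillins, fibulins, thrombospondins, lysyl oxidases, laminin chains, integrin chains (ITGA, ITGB), and FN1, DCN, LUM, BGN, FMOD, OGN, ASPN, SPARC, POSTN and ELN. The rule found 58 genes with 108 probe sets, of 6765 genes with 10069 probe sets that carry a single symbol. No probe set with the symbol FMOD, OGN, ELN, COL1A1, COL4A1, LAMA2 or ITGA7 was used here. The series compared the longissimus dorsi, the long back muscle, of 3 Large White boars (LW), the control breed, with that of 3 Northeastern Indigenous boars (NI). All 6 boars had the same nutrition and environment and were slaughtered at 150 days. Each boar gave 1 array, and the labels call the arrays biological replicates of a breed. The labels name no treatment and no transgene in either breed.

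The extracellular matrix of muscle is a network of collagen fibrils, proteoglycans and adhesive glycoproteins made mostly by fibroblasts, with a basement membrane of type IV collagen and laminin around each muscle fibre. Lysyl oxidases cross-link its collagen and elastin, metalloproteinases cut it, and TIMP proteins block those proteases. Integrins are pairs of an alpha and a beta chain in the cell membrane that bind matrix proteins outside and the actin skeleton inside. In meat animals the amount and cross-linking of this network bear on toughness.

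Values are log2 intensities after quantile normalization, differences are NI minus LW on that scale, and each difference has the SE from limma. Intensities of different probe sets are not set against each other, since probes differ in brightness. In bulk muscle, fewer cells of a type and less RNA per cell cannot be told apart.

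LW replicates 1 and 3 stood apart from the other 4 arrays, and every result below has to be read with that. LW replicate 1 lay at a median of 5.83 above the NI mean over 8 of 11 adipocyte markers kept, LW replicate 3 at 4.32 and LW replicate 2 at 0.05. The summed intensity of those 8 markers ran from 5511 to 68097 in LW and from 5614 to 8602 in NI. Over 11 of 14 muscle fibre markers the LW arrays lay at -3.58, -0.14 and -0.41, with sums from 23380 to 246426 in LW and from 254996 to 294416 in NI. DES, the desmin gene among these markers, read 7.26, 13.23 and 11.59 on LW replicates 1, 2 and 3 and 13.09, 12.91 and 13.63 on the NI ones. The labelled tissue therefore had its markers on 5 arrays, while on LW replicate 1 they were far dimmer. LW replicate 3 still lay below all NI arrays in 9 of these 11 markers, against 43.8% of all named genes. LW replicate 2 did so in 6, against 30.9%. Fibroblast markers (6 of 8 kept) lay at 1.91, 0.57 and 2.53, with sums from 11681 to 33461 in LW and from 5976 to 12302 in NI. Leukocyte markers (12 of 15 kept) lay at 2.48, 0.75 and 2.37, with sums from 9074 to 30748 in LW and from 2827 to 5795 in NI. Endothelial markers (8 of 10 kept) lay at -0.44, -0.01 and -0.26, and had sums from 2819 to 3068 in LW and from 2649 to 3550 in NI. Smooth muscle and pericyte markers (5 of 9 kept) had sums from 5530 to 7092 in LW and from 8703 to 9879 in NI. The 2 tendon markers kept of 8, CILP and COMP, had sums from 1523 to 8156 in LW and from 859 to 1510 in NI, and the 3 Schwann cell markers kept of 6 had sums from 1666 to 2036 in LW and from 911 to 1595 in NI. The part of these cell types in the results below was not tested. The markers CIDEA, PPARG, LIPE, CD3D, CD3E, CD14, PTPRC and COMP were kept only through their LW arrays, and SOX10 only through its NI arrays. No marker is listed at 0, since every deposited intensity is above 0.

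Most of the matrix genes read lower in the Northeastern Indigenous boars, but none passed the adjusted threshold. Of the 58 genes, 41 were bright enough to be tested, and 34 of these had a negative difference and 7 a positive one. The median difference was -1.0, against 0.09 over all 5438 named genes tested, of which 45.3% were negative. Limma called 0 of the 41 at an adjusted p under 0.05, as it called 0 of 14399 probe sets (0.0%). The smallest adjusted p among the 41 was 0.224. At an unadjusted p under 0.05, 17 of the 41 were lower, where 11.4% of all named genes were, and 0 were higher, where 9.42% of all named genes were. Over all probe sets that unadjusted count was 2706. In 14 of the 41 every NI array lay below every LW array, against 12.3% of all named genes, and in 0 every NI array lay above, against 15.9%. COL5A2, 1 of the 14, passed the filter only through its LW arrays. The count of 17 ran from 6 to 31 when any 1 array was left out. The fewest, 6, came without LW replicate 3 and the most, 31, without LW replicate 2, and there were 10 without LW replicate 1 and 7 each without NI replicate 1 or 3.

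**Figure D1:**
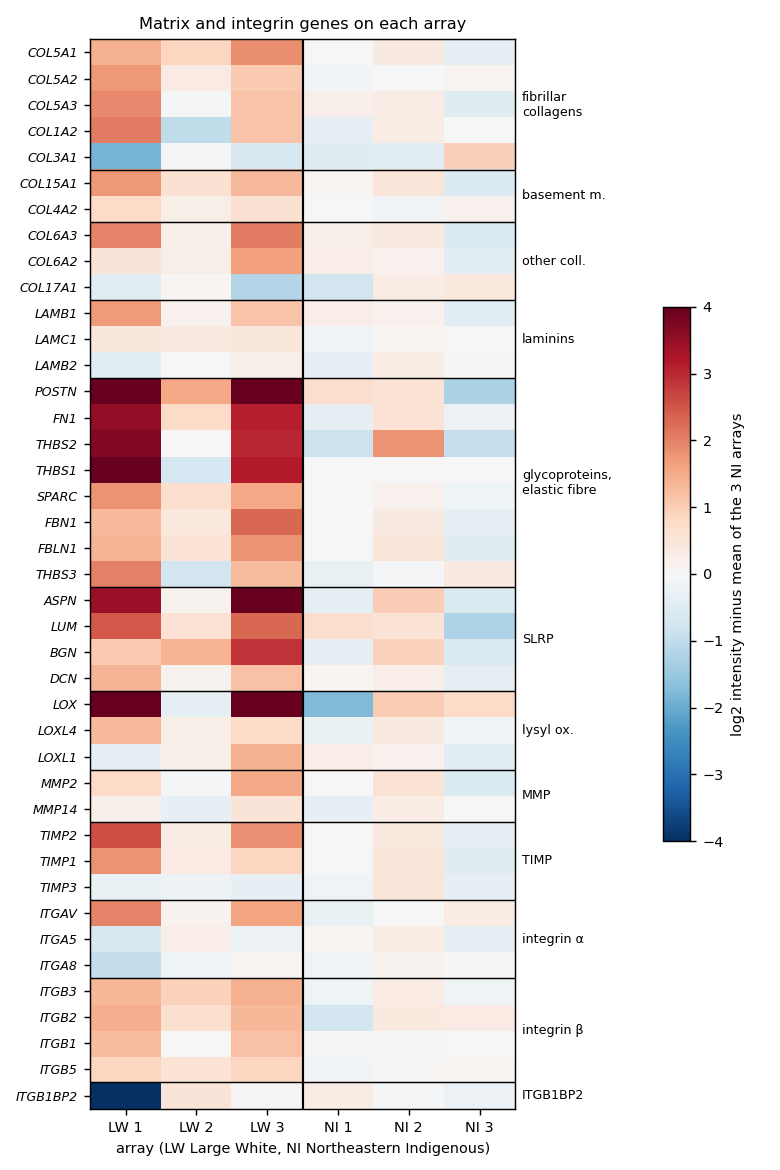
Heat map of the 41 matrix and integrin genes tested (rows, grouped by role) on the 6 arrays (columns). Colour is the log2 intensity minus the mean of the 3 Northeastern Indigenous arrays, and values beyond 4 have the end colour. Most rows are red on Large White replicates 1 and 3 and pale on replicate 2, while ITGB1BP2, COL3A1, ITGA8, ITGA5, LAMB2, COL17A1, LOXL1 and TIMP3 lie below the NI mean on replicate 1.

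Per array, the 41 genes lay at a median of 1.37, 0.22 and 1.29 from the NI mean on LW replicates 1, 2 and 3. On NI replicates 1, 2 and 3 they lay at -0.01, 0.30 and -0.22. LW replicate 1 read above all NI arrays in 32 of the 41 genes and LW replicate 3 in 34, where the shares over all named genes were 38.7% and 32.0%. On LW replicate 2 it was 15 of 41, or 36.6%, where the share over all named genes was 29.3%. LW replicate 2 was the lowest LW array in 32 of the 41 genes (78.0%), compared with 40.4% of all named genes. The SD over the 3 LW arrays was larger than that over the 3 NI arrays in 35 of 41, and in 74.0% of all named genes.

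Fibrillar collagens form the tension-bearing fibrils, and 5 of the 7 on the array were tested. Of these, 4 had negative differences and COL3A1 a positive one, with a list median of -0.999. That median was -0.54 without LW replicate 1 and -1.53 without LW replicate 2. Only COL5A1 had an unadjusted p under 0.05. COL5A1, a chain of the type V collagen that starts fibrils and limits their width, read 9.95, 9.39 and 10.38 on LW replicates 1, 2 and 3 and 8.53, 8.89 and 8.14 on the NI ones. By this brightest probe set all 3 LW arrays lay above all NI arrays, LW replicate 2 included. In both further COL5A1 probe sets kept the breeds overlapped. By 1 of them LW replicate 2 read 8.83, below NI replicate 2 at 9.03. By the other LW replicate 1 read 5.49, below all NI arrays. The COL5A1 difference by the brightest probe set was -1.39 ± 0.35 (SE), with limma's adjusted p at 0.224. Its partner chain COL5A2 read 7.17, 5.75 and 6.47 on LW replicates 1, 2 and 3 and 5.32, 5.43 and 5.56 on the NI ones, again with no overlap, and differed by -1.03 ± 0.45. COL5A2 had a mean below the filter value of 5.85 in NI and was kept through its LW arrays. COL5A3, the third type V chain, read 10.16, 8.17 and 9.39 on LW replicates 1, 2 and 3 and 8.43, 8.53 and 7.76 on the NI ones. Here LW replicate 2 sat among the NI arrays, and the difference was -0.999 ± 0.52.

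The major fibril chains did not share 1 pattern. COL1A2, the alpha 2 chain of type I collagen, the main collagen of muscle connective tissue, read 9.50, 6.42 and 8.57 on LW replicates 1, 2 and 3 and 7.12, 7.74 and 7.46 on the NI ones. LW replicates 1 and 3 were above all NI arrays and LW replicate 2 was below them all, so that the difference of -0.73 ± 0.73 was no larger than its SE. It was -0.06 without LW replicate 1 and -1.60 without LW replicate 2. COL3A1, the type III collagen of the fine network between fibres, read 8.55, 10.35 and 9.78 on LW replicates 1, 2 and 3 and 9.91, 9.97 and 11.36 on the NI ones. It was lowest on LW replicate 1 and highest on NI replicate 3, with the breeds overlapping and a difference of 0.86 ± 0.58 (adjusted p 0.40). Thus COL3A1 was dim on the array where COL1A2, COL5A2 and COL5A3 were brightest. COL3A1 had a single probe set, so no second reading was made. In the RefSeq gene table (assembly Sscrofa11.1) COL3A1 and COL5A2 are neighbours with 0 protein-coding genes between them, and their differences were 0.86 and -1.03. COL11A1 and COL2A1, chains of cartilage collagens, were too dim to be tested, with LW means of 3.42 and 4.91 and NI means of 4.03 and 4.85.

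Among basement membrane genes the differences ran from -1.21 for COL15A1 to 0.07 for LAMB2. COL15A1, a collagen that links basement membrane to the fibrils next to it, read 13.14, 11.997 and 12.69 on LW replicates 1, 2 and 3 and 11.47, 11.88 and 10.85 on the NI ones. Every LW array lay above every NI array, though LW replicate 2 exceeded the brightest NI array by little. It differed by -1.21 ± 0.38 (adjusted p 0.227). COL4A2, a chain of the type IV collagen sheet, read 9.996, 9.43 and 9.82 on LW replicates 1, 2 and 3 and 9.21, 9.06 and 9.38 on the NI ones and differed by -0.54 ± 0.27, also with no overlap. LAMC1, the gamma 1 chain found in most laminins, read 11.44, 11.34 and 11.46 on LW replicates 1, 2 and 3 and 10.90, 11.09 and 10.999 on the NI ones. Its LW arrays were close together (SD 0.06, n = 3) and all above the NI arrays (SD 0.10, n = 3), with a difference of -0.42 ± 0.21. LW replicate 2 was nearly as bright here as the other LW arrays. By a further LAMC1 probe set LW replicate 2 read 6.86, inside the NI range of 6.16 to 6.98. By another it read 6.47, inside the NI range of 5.89 to 6.87. By the last further probe set kept it read 7.92, above the NI range, and the breeds did not overlap. LAMB1, a beta chain paired with LAMC1, read 10.63, 9.11 and 10.09 on LW replicates 1, 2 and 3 and 9.21, 9.11 and 8.49 on the NI ones and differed by -1.01 ± 0.44, with LW replicate 2 inside the NI range. By a second LAMB1 probe set LW replicate 2 read 7.05, above the NI range, and the breeds did not overlap. LAMB2, the beta chain enriched at the nerve-muscle junction, read 8.75, 9.21 and 9.43 on LW replicates 1, 2 and 3 and 8.87, 9.49 and 9.24 on the NI ones. The breeds overlapped, and the difference was 0.07 ± 0.30. It changed sign to -0.11 without quantile normalization.

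The other collagens tested were COL6A3, COL6A2 and COL17A1. Type VI collagen forms beaded filaments beside the muscle basement membrane. COL6A3, its largest chain, read 13.59, 11.81 and 13.66 on LW replicates 1, 2 and 3 and 11.80, 11.96 and 11.08 on the NI ones. LW replicates 1 and 3 were high and LW replicate 2 sat among the NI arrays, giving a difference of -1.41 ± 0.53. COL6A2 read 8.92, 8.66 and 10.05 on LW replicates 1, 2 and 3 and 8.67, 8.59 and 7.96 on the NI ones and differed by -0.80 ± 0.42. Both type VI chains were brighter on LW replicate 3 than on replicate 1. COL17A1, a transmembrane collagen of skin hemidesmosomes, read 5.85, 6.33 and 5.08 on LW replicates 1, 2 and 3 and 5.53, 6.57 and 6.67 on the NI ones, with a difference of 0.51 ± 0.50, and passed the filter through its NI arrays. COL7A1, COL8A1 and COL10A1 were too dim to be tested, although COL8A1 read 6.78 and 6.90 on LW replicates 1 and 3 against 3.30 to 5.67 on the other 4 arrays. That was by its brightest probe set only: in its other probe sets, also too dim, neither LW replicate 1 nor 3 was the brightest array.

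All 8 adhesive and elastic glycoproteins were tested and all 8 read lower in NI on average, with a median of -1.79. Of these 5 had an unadjusted p under 0.05, where 11.4% of all named genes were lower. SPARC, a collagen-binding protein secreted by matrix-making cells, read 15.09, 13.97 and 14.85 on LW replicates 1, 2 and 3 and 13.30, 13.46 and 13.13 on the NI ones. Every LW array exceeded every NI array. The difference was -1.34 ± 0.29, a 2.54-fold lower intensity in NI, and its unadjusted p was the smallest of the 41 genes (adjusted p 0.224 in limma). POSTN, periostin, a matrix protein of remodelling connective tissue, read 13.37, 8.86 and 11.61 on LW replicates 1, 2 and 3 and 8.02, 7.87 and 6.06 on the NI ones. LW replicate 2 was the lowest LW array by far but still above the NI arrays. With a difference of -3.96 ± 1.12 it had the largest shift of the 41 genes and also a wide spread, with an SD of 2.27 in LW and 1.09 in NI (n = 3 per breed). FN1, fibronectin, the adhesive protein that integrins assemble into fibrils, read 14.57, 11.79 and 14.12 on LW replicates 1, 2 and 3 and 10.68, 11.59 and 10.80 on the NI ones. LW replicate 2 stood just above the brightest NI array, and the difference was -2.47 ± 0.70.

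Fibulin and fibrillin followed at smaller size. FBLN1, a fibronectin- and elastin-binding protein, read 9.53, 8.71 and 9.95 on LW replicates 1, 2 and 3 and 8.16, 8.66 and 7.67 on the NI ones and differed by -1.23 ± 0.41. FBN1, the core of microfibrils, read 12.0003, 11.11 and 12.99 on LW replicates 1, 2 and 3 and 10.72, 11.07 and 10.33 on the NI ones and differed by -1.33 ± 0.48. In both genes the breeds did not overlap, LW replicate 3 was the brightest array, and LW replicate 2 was only just above the brightest NI array. By a second FBN1 probe set LW replicate 2 read 9.40, inside the NI range of 8.89 to 9.54, so there the breeds overlapped.

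The 3 thrombospondins, secreted regulators of adhesion and of vessel growth, were not above the NI range on LW replicate 2 by their brightest probe sets. THBS1 read 11.51, 6.56 and 10.42 on LW replicates 1, 2 and 3 and 7.26, 7.26 and 7.26 on the NI ones. The NI arrays were nearly equal, LW replicates 1 and 3 more than 3 units above them, and LW replicate 2 below them. The difference was -2.23 ± 1.15, and its SD was 2.60 in LW (n = 3). A second THBS1 probe set, kept through its LW arrays, gave -3.33 with an SE of 1.39. It read 5.30 on LW replicate 2, inside the NI range of 4.98 to 5.73. THBS2 read 11.84, 8.11 and 11.15 on LW replicates 1, 2 and 3 and 7.25, 9.93 and 7.19 on the NI ones and differed by -2.24 ± 1.12, with NI replicate 2 standing above the rest of its breed. THBS3 read 8.17, 5.37 and 7.39 on LW replicates 1, 2 and 3 and 5.83, 6.08 and 6.50 on the NI ones and differed by -0.84 ± 0.70. A second THBS3 probe set, dimmer on average and kept through its LW arrays, gave -3.30 with an SE of 0.90. It read 8.50, 5.39 and 8.70 on LW replicates 1, 2 and 3 and 3.84, 4.86 and 3.98 on the NI ones, so that LW replicate 2 lay above the NI range and the breeds did not overlap. For THBS3 the size, the overlap and the place of LW replicate 2 thus depend on the probe set.

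Small leucine-rich proteoglycans coat collagen fibrils and set their spacing. The 4 on the array were all tested, all read lower in NI and all had an unadjusted p under 0.05, with a median of -1.77. At that threshold 11.4% of all named genes were lower. DCN, decorin, which binds collagen and TGF-beta, read 14.90, 13.68 and 14.72 on LW replicates 1, 2 and 3 and 13.62, 13.81 and 13.19 on the NI ones. Its difference was -0.89 ± 0.34. LUM, lumican, a regulator of fibril width, read 13.91, 12.02 and 13.77 on LW replicates 1, 2 and 3 and 12.16, 11.99 and 10.22 on the NI ones and differed by -1.78 ± 0.68. ASPN, asporin, a decorin relative, read 12.90, 9.62 and 13.49 on LW replicates 1, 2 and 3 and 9.11, 10.45 and 8.89 on the NI ones and differed by -2.52 ± 0.997. In these 3 genes LW replicate 2 lay inside the NI range, so the breeds overlapped. BGN, biglycan, was the exception. It read 7.26, 7.59 and 9.08 on LW replicates 1, 2 and 3 and 5.87, 7.13 and 5.63 on the NI ones, its LW replicates 1 and 2 were close, its replicate 3 was the highest, and all 3 were above the NI arrays, with a difference of -1.77 ± 0.60 (adjusted p 0.232).

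Lysyl oxidases, which cross-link collagen and elastin, were all lower in NI on average, with overlap between the breeds. LOX read 9.74, 4.09 and 9.15 on LW replicates 1, 2 and 3 and 2.68, 5.45 and 5.20 on the NI ones. LW replicates 1 and 3 were the only bright arrays, and LW replicate 2 lay below 2 of the 3 NI arrays. The difference of -3.22 ± 1.53 had the largest SE of the 41 genes, and the NI mean of 4.44 was below the filter value, so LOX was kept through its LW arrays. LOXL4 read 8.76, 7.69 and 8.22 on LW replicates 1, 2 and 3 and 7.21, 7.82 and 7.37 on the NI ones and differed by -0.75 ± 0.35. LOXL1, which acts on elastin, read 7.42, 7.93 and 9.15 on LW replicates 1, 2 and 3 and 7.99, 7.91 and 7.31 on the NI ones. Only LW replicate 3 stood out, and the difference was -0.43 ± 0.47.

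**Figure D2:**
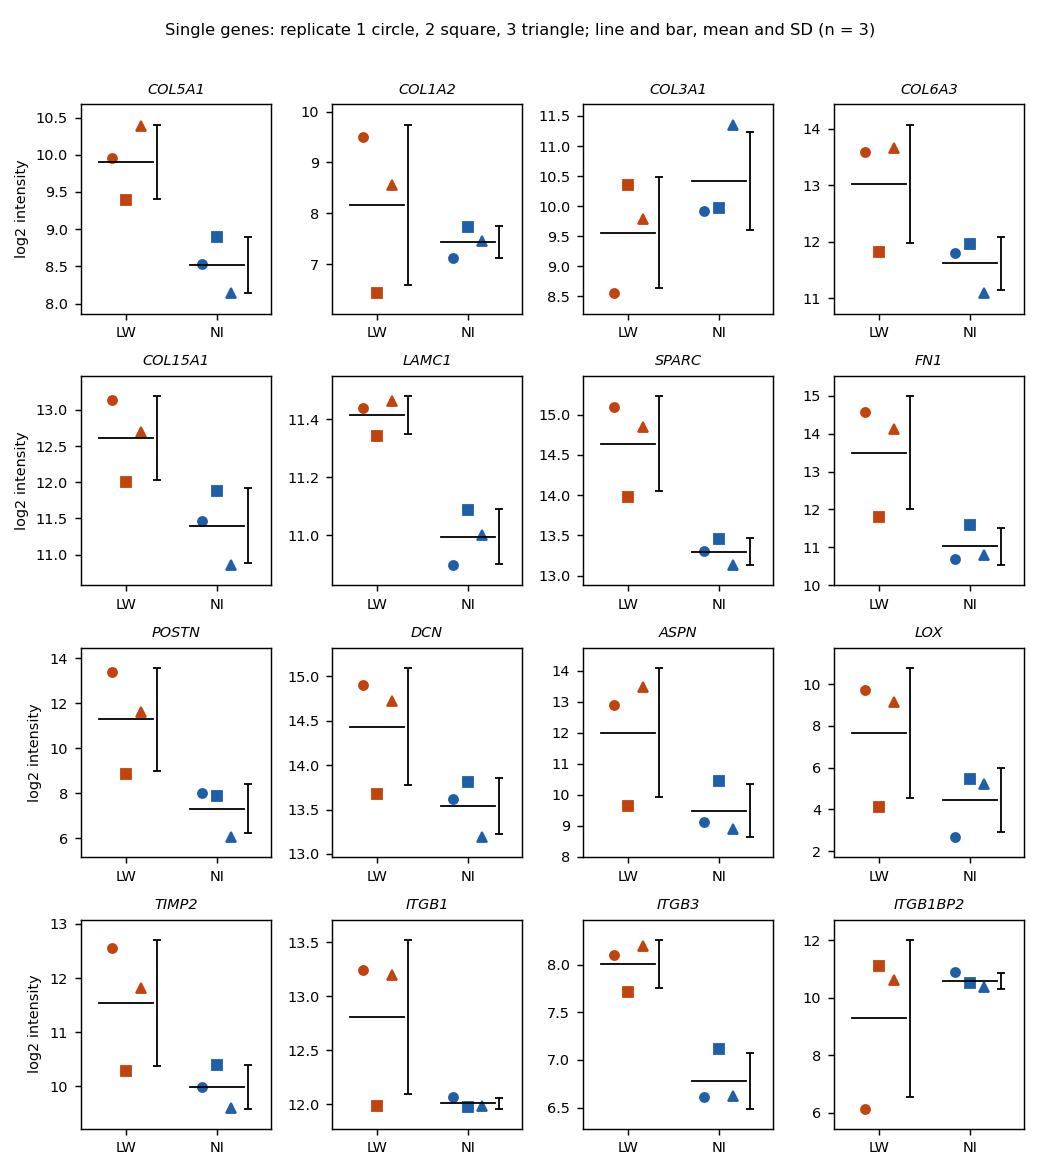
Log2 intensity of 16 single genes in Large White (LW, red) and Northeastern Indigenous (NI, blue) boars, 1 symbol per array, with the mean and SD of 3 arrays per breed. SPARC, COL5A1 and ITGB3 show no overlap of the breeds, while in DCN, ASPN, LOX, TIMP2 and ITGB1 the square of LW replicate 2 lies among the NI arrays. Each panel has its own axis.

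Of 8 metalloproteinases only MMP2 and MMP14 were bright enough to be tested. MMP2, a gelatinase of connective tissue, read 9.78, 8.96 and 10.51 on LW replicates 1, 2 and 3 and 8.998, 9.53 and 8.46 on the NI ones and differed by -0.75 ± 0.47. MMP14, the membrane protease that activates MMP2, read 7.01, 6.49 and 7.32 on LW replicates 1, 2 and 3 and 6.48, 7.11 and 6.84 on the NI ones and differed by -0.13 ± 0.34. The breeds overlapped in both. The collagenases MMP1 and MMP13, stromelysin MMP3, matrilysin MMP7, the enamel protease MMP20 and gelatinase MMP9 were dim on average. MMP9 read 5.31, 4.19 and 5.46 on LW replicates 1, 2 and 3 and 5.79, 5.62 and 4.92 on the NI ones. It was at most 5.79 on any array, and its order between breeds has no test. MMP7, MMP20, MMP1, MMP3 and MMP13 lie along the same stretch of the RefSeq gene order, with at most 2 protein-coding genes between neighbours. Their differences, from -0.33 to 0.66, are between dim readings.

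The metalloproteinase inhibitors had differences of both signs. TIMP2, which also takes part in activating MMP2, read 12.55, 10.27 and 11.81 on LW replicates 1, 2 and 3 and 9.98, 10.39 and 9.59 on the NI ones. LW replicates 1 and 3 were high and replicate 2 was among the NI arrays, with a difference of -1.56 ± 0.57. A second TIMP2 probe set gave -0.58 with an SE of 0.30. TIMP1 read 10.38, 8.91 and 9.43 on LW replicates 1, 2 and 3 and 8.56, 9.07 and 8.10 on the NI ones and differed by -1.0003 ± 0.45. TIMP3, the inhibitor bound to the matrix, read 6.32, 6.36 and 6.24 on LW replicates 1, 2 and 3 and 6.42, 7.06 and 6.23 on the NI ones and differed by 0.27 ± 0.34. TIMP3 was thus nearly level on the LW arrays (SD 0.06, n = 3) where TIMP1 and TIMP2 spread widely. TIMP4 was too dim to be tested, at an LW mean of 5.21 and an NI mean of 2.92, with 0.38 on NI replicate 1.

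Integrin beta chains read lower in NI in all 4 tested, with a median of -0.97. Of these 3 had an unadjusted p under 0.05, where 11.4% of all named genes were lower. ITGB3, the beta chain of the vitronectin receptor and of platelets, read 8.10, 7.72 and 8.20 on LW replicates 1, 2 and 3 and 6.61, 7.12 and 6.62 on the NI ones. The LW arrays were close together, and all were above the NI arrays. It differed by -1.22 ± 0.28 (adjusted p 0.224), with a range of -1.39 to -1.13 when any 1 array was left out. ITGB5, another partner of the alpha V chain, read 9.34, 9.05 and 9.35 on LW replicates 1, 2 and 3 and 8.37, 8.54 and 8.56 on the NI ones, a tight group in each breed with no overlap, and differed by -0.76 ± 0.24. ITGB2, the beta chain of leukocyte integrins, read 7.93, 7.09 and 7.79 on LW replicates 1, 2 and 3 and 5.72, 6.86 and 6.81 on the NI ones and differed by -1.14 ± 0.42. The leukocyte markers above were brighter on the same LW arrays. The shared chain ITGB1, which pairs with most matrix-binding alpha chains, read 13.24, 11.98 and 13.19 on LW replicates 1, 2 and 3 and 12.07, 11.98 and 11.99 on the NI ones. On LW replicate 2 and the NI arrays it was almost constant (NI SD 0.05, n = 3), and the difference of -0.80 ± 0.36 came from LW replicates 1 and 3. ITGB7, the lymphocyte chain, was too dim to be tested.

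Integrin alpha chains were mostly dim, with 3 of 7 tested. ITGAV, the alpha V chain that pairs with ITGB3 and ITGB5, read 10.68, 8.83 and 10.27 on LW replicates 1, 2 and 3 and 8.40, 8.71 and 8.99 on the NI ones and differed by -1.23 ± 0.49. Its LW replicate 2 lay inside the NI range, whereas its partners ITGB3 and ITGB5 were above their own NI ranges on the same array. ITGA5, the fibronectin receptor chain, read 5.57, 6.47 and 5.97 on LW replicates 1, 2 and 3 and 6.30, 6.50 and 5.82 on the NI ones and differed by 0.20 ± 0.39. ITGA8 read 5.44, 6.23 and 6.50 on LW replicates 1, 2 and 3 and 6.22, 6.55 and 6.43 on the NI ones and differed by 0.34 ± 0.39. For both the breeds overlapped and the difference was smaller than its SE. ITGA5 turned to -0.01 without LW replicate 1. ITGAM, the alpha chain of a macrophage and neutrophil integrin, read 4.77, 4.25 and 4.82 on LW replicates 1, 2 and 3 and 4.21, 4.45 and 4.99 on the NI ones and was too dim to be tested, as were ITGA2, ITGA2B and ITGA6.

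ITGB1BP2, or melusin, is not a matrix gene: the symbol rule takes it in, and it encodes a muscle protein that binds the ITGB1 tail. It read 6.14, 11.08 and 10.62 on LW replicates 1, 2 and 3 and 10.88, 10.50 and 10.36 on the NI ones. LW replicate 2 lay above the NI range, LW replicate 3 inside it, and LW replicate 1 was more than 4 units below it. The difference was 1.30 ± 1.21, and without LW replicate 1 it turned to -0.27. A second probe set gave 0.88 with an SE of 1.05. The muscle fibre markers were dim on the same array.

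Set against LW replicate 2 alone, the NI arrays read lower in 29 of the 41 genes and higher in 12, with a median of -0.22. Over all named genes 50.5% were lower in that comparison. Limma called 0 members there, and at an unadjusted p under 0.05 SPARC was lower and COL1A2 higher. The LW arm of this comparison is 1 array, whose spread is assumed to be that of the NI arrays. In 15 genes LW replicate 2 was above all NI arrays: COL4A2, COL5A1, COL5A2, COL15A1, LAMC1, SPARC, POSTN, FN1, FBLN1, FBN1, BGN, ITGB2, ITGB3, ITGB5 and ITGB1BP2. The largest of these gaps to the NI mean were 1.54 for POSTN, 1.38 for BGN, 0.93 for ITGB3, 0.87 for COL5A1, 0.77 for FN1 and 0.68 for SPARC. COL1A2, THBS1 and THBS3 lay below all NI arrays on LW replicate 2. Among the probe sets kept, THBS1 and THBS3 did so by their brightest ones only. Of the 15 genes above, COL5A1, FBN1 and LAMC1 lay inside the NI range there by a further probe set that was kept. By further probe sets too dim to be kept, COL5A2, SPARC and POSTN lay inside it, and FN1 inside or below it. On that array the adipocyte markers were 0.05 and the muscle fibre markers -0.14 from the NI mean, while the fibroblast and leukocyte markers were 0.57 and 0.75 above it. The smooth muscle and pericyte markers were -0.58 and the 2 tendon markers -0.35 from the NI mean there. On NI replicate 2 the fibroblast and leukocyte lists were 0.50 and 0.69 above the mean of their own breed.

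Leaving out LW replicate 2 had the opposite effect on the calls. Limma then called 27 of the 41 genes lower at an adjusted p under 0.05, where 17.1% of all named genes were called lower, and 0 higher, where 16.9% of all named genes were called higher. The 27 include COL5A2 and LOX, which passed the filter on dim probe sets only through LW, the breed in which they were brighter. The 14 that were not called were COL3A1, COL4A2, COL6A2, COL17A1, LAMB2, LAMC1, LOXL1, MMP2, MMP14, TIMP3, BGN, ITGA5, ITGA8 and ITGB1BP2. The LW arrays in that fit were those with bright adipocyte, fibroblast and leukocyte markers, so breed and that feature of the arrays cannot be told apart in it. BGN, LAMC1 and COL4A2, in which the breeds did not overlap with all 6 arrays, were among those not called.

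**Figure D3:**
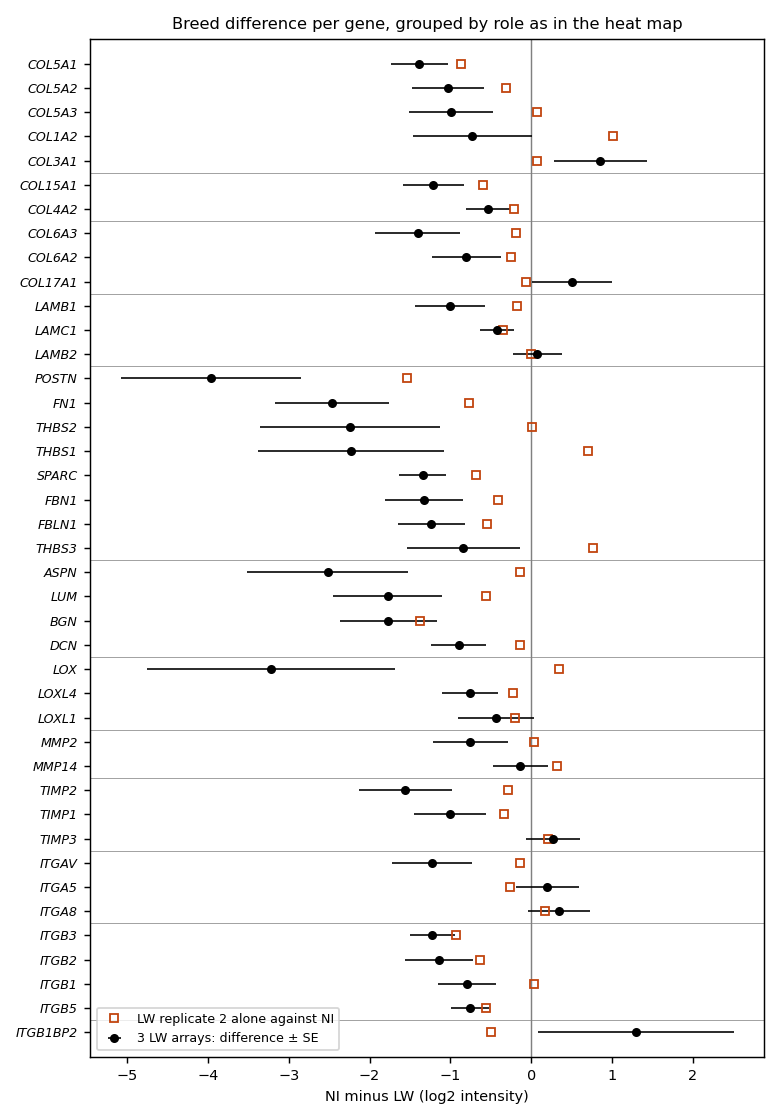
Northeastern Indigenous minus Large White differences of the 41 genes (log2 intensity), with all 3 LW arrays (filled, ± SE) and with LW replicate 2 alone (open squares). The open squares lie nearer to 0 for most genes, at -0.14 for ASPN and DCN, and stay near the filled points for ITGB3, ITGB5, BGN and LAMC1.

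LW replicate 3 exceeded LW replicate 1 in 18 of the 41 genes (43.9%), about the share of all named genes (44.5%). All 8 adipocyte markers were brighter on LW replicate 1 than on replicate 3, and 5 of 6 fibroblast markers were brighter on replicate 3. Within NI, replicate 2 was the brightest array for 26 of the 41 genes (35.6% of all named genes) and replicate 3 the dimmest for 22 (35.9% of all named genes). NI replicate 2 was also the NI array with the brightest adipocyte (0.52), fibroblast (0.50) and leukocyte (0.69) markers.

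Second probe sets that passed the filter had the sign of the chosen one. Among the 41 genes 9 had such further probe sets, 12 in all. Those of THBS3, THBS1 and FN1 had NI means of 4.23, 5.38 and 5.59, below the filter value. They were kept through their LW arrays, which fixed a negative sign for them. Further probe sets too dim to be kept had differences of both signs. The 12 kept ranged from -3.33 for THBS1 and -3.30 for THBS3 to 0.88 for ITGB1BP2. FBN1 gave -1.29 against -1.33 for the chosen probe set, FN1 -1.37 against -2.47, and LAMB1 -0.68 against -1.01. The LAMC1 probe sets gave -0.96, -0.47 and -0.41. For COL5A1 they gave -1.52 and -0.20 against -1.39, both from dimmer probe sets in which the breeds overlapped. The neighbours DCN and LUM, with 0 protein-coding genes between them, differed by -0.89 and -1.78.

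Genes that fold and process collagen read lower in NI as well. Of 33 symbols listed, 11 were tested, all 11 were negative, with a median of -1.28, and 7 had an unadjusted p under 0.05. At that threshold 11.4% of all named genes were lower. FKBP10, a prolyl isomerase of collagen folding, read 9.20, 7.84 and 8.97 on LW replicates 1, 2 and 3 and 6.22, 6.98 and 5.62 on the NI ones and differed by -2.40 ± 0.49. SERPINH1, the collagen chaperone HSP47, differed by -1.99 ± 0.55, PCOLCE2, an enhancer of propeptide removal, by -2.17 ± 0.65, and BMP1, the protease that removes it, by -1.28 ± 0.33. In these 4 the breeds did not overlap. On LW replicate 2 this list lay 0.68 above the NI mean, the largest shift on that array among the 6 pathway lists. There 9 of 11 genes were above all NI arrays, against 29.3% of all named genes.

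Other matrix glycoproteins and proteoglycans (19 tested of 45 listed) had a median of -1.57, with 17 negative. At an unadjusted p under 0.05, 9 were lower, against 11.4% of all named genes. AEBP1, a collagen-binding protein of fibroblasts, read 10.91, 7.12 and 10.83 on LW replicates 1, 2 and 3 and 6.29, 4.32 and 3.68 on the NI ones and differed by -4.86 ± 1.13. SPP1, osteopontin, differed by -4.73 ± 1.37, MGP, an inhibitor of matrix calcification, by -1.57 ± 0.43, and DPT, dermatopontin, which is also in the fibroblast marker list, by -2.11 ± 0.58. All 4 had no overlap between breeds. AEBP1 and SPP1 had NI means of 4.76 and 5.39, below the filter value of 5.85, and were kept through their LW arrays. The same holds for COMP and TNC of this list, with NI means of 4.69 and 5.06. Other matrix proteases and inhibitors (15 tested of 27) had a median of -1.28, with 12 negative. At an unadjusted p under 0.05, 7 were lower, again beside 11.4% of all named genes. HPSE, 1 of the 7, had an NI mean of 5.08 and was kept through its LW arrays. CTSS, a lysosomal protease of antigen-presenting cells, differed by -1.85 ± 0.47, HTRA1, a secreted serine protease, by -1.32 ± 0.40, SERPINE2, a protease inhibitor, by -2.21 ± 0.70, and FAP, the fibroblast activation protein, by -2.25 ± 0.76. On LW replicate 2 these lists lay only 0.18 and 0.02 from the NI mean.

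Of 28 symbols on the TGF-beta list, signals that induce matrix genes, 7 were tested. Their differences had a median of -0.10, with 5 negative, 2 positive and 3 lower at an unadjusted p under 0.05. At that threshold 11.4% of all named genes were lower. The list lay at a median of 0.96, 0.31 and 0.40 above the NI mean on LW replicates 1, 2 and 3. TGFB3 read 8.88, 6.85 and 8.93 on LW replicates 1, 2 and 3 and 3.59, 6.52 and 5.56 on the NI ones. It differed by -2.99 ± 0.87, its receptor TGFBR1 by -0.77 ± 0.24 and TGFB2 by -0.86 ± 0.29, each with no overlap. TGFB3 had an NI mean of 5.22, below the filter value, and was kept through its LW arrays, which fixed its negative sign. CYR61, a matrix-bound signalling protein, differed by 0.40 ± 0.59. The list's median was -0.59 without the filter on dim probe sets, -0.31 without NI replicate 2 and -0.07 without NI replicate 3.

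The integrin adhesion list (15 tested of 33) had a median of -0.62, with 12 negative and 3 positive. It had 4 genes lower at an unadjusted p under 0.05, against 11.4% of all named genes. Its median was -0.41 without LW replicate 1 and -1.06 without LW replicate 2. Those 4 were TNS3, a tensin of focal adhesions (-1.74 ± 0.51), and the membrane proteins CD81 (-1.45 ± 0.44), CD47 (-0.99 ± 0.37) and CD9 (-1.20 ± 0.46), which associate with integrins. The dystroglycan and sarcoglycan list, which ties the muscle fibre to its laminin, had only 4 of 23 symbols tested, all positive, with a median of 0.64 and 0 at an unadjusted p under 0.05. The median was 0.32 without LW replicate 1, the array with the dim muscle fibre markers, and 0.93 without LW replicate 2. The 4 genes were DMD, dystrophin (0.96 ± 0.44), SGCD (0.98 ± 0.58), SNTB1 (0.33 ± 0.29) and DTNB (0.21 ± 0.27), and on LW replicate 2 this list was 0.06 from the NI mean. No gene of these 6 lists passed the adjusted threshold in limma.

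**Figure D4:**
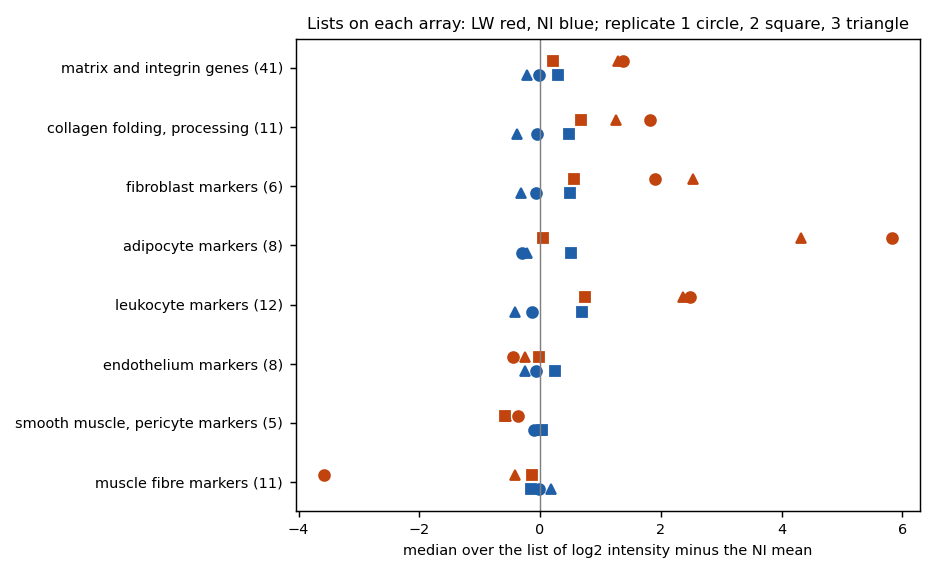
Median over each list (number of genes tested in brackets) of the log2 intensity minus the Northeastern Indigenous mean, 1 symbol per array. Large White replicates 1 and 3 lie to the right for matrix, collagen folding, fibroblast, adipocyte and leukocyte lists, and LW replicate 1 lies at -3.58 for muscle fibre markers.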

How the data were processed

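RNA of 6 longissimus dorsi samples was hybridised to 1 array each. The authors deposited intensities per probe set, linear as judged from their range, and the labels name Affymetrix CHP files. How they summarised the probes is not given in the sources used here. The deposited intensities had array medians from 94.1 to 120 and no value at 0. Here 124 control probe sets were left out, the deposited intensities were turned into log2 values and quantile normalized, and the dimmest 40% of the 23999 probe sets, those with a mean log2 under 5.85, were dropped, which left 14399 to be tested with limma 3.58.1 in R 4.3.3 (lmFit, eBayes with trend), with Benjamini-Hochberg adjustment over all of them. A gene is its probe set with the highest mean log2. Platform symbols named 10069 probe sets, 198 had several symbols and 13732 had none. The fit was tested on simulated data.

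Members, pathway lists and markers were chosen with earlier results of these data known, so no count is independent support. Per-array values are given for up to 4 tested members of each role with the smallest unadjusted p and for a fixed set of well-known members, and 4 genes with the smallest p are named per pathway list. Other members were named after their values were seen. Correlations of deviations for arrays with the same replicate number were -0.02, -0.16 and -0.11, so the numbers were not taken to pair boars. The 3 arrays per breed limit the precision. Alternatives changed the scaling, filter, offset, eBayes prior, probe set choice, threshold and arrays used. Promoter sequences were not used here.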

Additional observations from a re-analysis of the deposited data

How the results depend on the processing

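The 41 matrix and integrin genes kept a negative median under each scaling, filter, offset and probe set rule tried. With LW replicates 1 and 3 left out together the median was -0.22, with 1 gene lower and 1 higher at an unadjusted p under 0.05. Over fits that left out 1 array the median ran from -1.40 to -0.74, the genes lower at an unadjusted p under 0.05 from 6 to 31, the genes called at an adjusted p under 0.05 from 0 to 27, and the probe sets called from 0 to 4421. Median centring called 1 probe set, and so did an adjusted p threshold of 0.1. With the replicate number as a block, 0 probe sets and 0 members were called, with 13 genes lower and 0 higher at an unadjusted p under 0.05. Against LW replicate 2 alone the sign turned for COL17A1 (-0.068), COL1A2 (1.01), COL5A3 (0.067), ITGA5 (-0.26), ITGB1 (0.031), ITGB1BP2 (-0.50), LAMB2 (-0.0045), LOX (0.35), MMP14 (0.32), MMP2 (0.038), THBS1 (0.70), THBS2 (0.011) and THBS3 (0.77). LAMB2 was -0.11 without quantile normalization. Leaving out 1 array turned the sign of ITGA5 (-0.014 to 0.43), ITGB1BP2 (-0.27 to 2.20), LAMB2 (-0.12 to 0.24), LOXL1 (-0.80 to 0.059) and MMP14 (-0.36 to 0.057). The cause was not tested. Dim signal limits the 17 genes that were not tested.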
